A study of Mus musculus with 6 samples.

Results

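The enzymes described here make nitric oxide, supply or compete for its substrate arginine, clear its natural inhibitors, or make itaconate. They were taken by gene name from a table of 57010 genes, which held all 10 of them: the nitric oxide synthases Nos1, Nos2 and Nos3, the arginases Arg1 and Arg2, the arginine-making enzyme Ass1, the cofactor enzyme Gch1, the itaconate enzyme Acod1, and the dimethylarginine hydrolases Ddah1 and Ddah2. RNA was sequenced from primary neonatal mouse cardiomyocytes (NMCMs) of C57BL/6 mice aged 1 to 3 days, which were parted from cardiac fibroblasts by how fast each attached to the dish. All cells were under hypoxia (HO), and the question was what β-sitosterol (β-SITO), a plant sterol, did to their transcripts. There were 3 HO + Vehicle libraries (V1 to V3) and 3 HO + β-SITO libraries (T4 to T6), with no normoxic group among them. No genotype other than the strain, no transgene and no other agent is named for either group. The dose and the hours of hypoxia for these libraries are not stated, nor is it stated whether the libraries of a group came from separate cultures, so the p-values below measure the spread between these libraries, which may be technical.

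Nitric oxide synthases turn arginine into citrulline and the gas nitric oxide. The inducible enzyme of Nos2 is made after inflammatory stimulation and yields much nitric oxide, whereas the enzymes of Nos1 (neuronal) and Nos3 (endothelial) are switched on by calcium and yield little. All of them need tetrahydrobiopterin, whose synthesis is started by GTP cyclohydrolase, the product of Gch1. Argininosuccinate synthase (Ass1) recycles citrulline toward arginine, arginases draw arginine off to ornithine and urea, and the DDAH enzymes break down asymmetric dimethylarginine (ADMA), a natural inhibitor of the synthases. Acod1 codes for the enzyme that makes itaconate from the citric acid cycle intermediate cis-aconitate in activated macrophages.

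The libraries held 16694734 to 17082129 counts in the vehicle group and 16962152 to 18460522 in the β-SITO group. Of all genes, 14799 had enough counts to be tested. Levels are in CPM, a gene's counts set to the same total in each library and corrected by the trimmed mean of M-values (TMM), and a gene was called where it changed by more than 2-fold and edgeR's quasi-likelihood test put its adjusted p under 0.05. By this rule 10.1% of the tested genes were called lower with β-SITO and 12.8% higher, while 66.8% passed the adjusted p alone and 70.5% had groups that did not overlap. A call, or groups that do not overlap, was thus common in this comparison. Although the cells are labelled cardiomyocytes, the summed level of 8 fibroblast markers was 29833 to 31113 CPM with vehicle and 44413 to 45501 CPM with β-SITO, against 5589 to 6619 and 5206 to 8869 CPM for 10 cardiomyocyte markers. Most of the fibroblast sum was 3 collagen genes, Col1a1, Col1a2 and Col3a1, at 25599 to 27252 CPM with vehicle and 40790 to 41622 CPM with β-SITO, while the other 5 markers came to 3862 to 4278 and 3623 to 3879 CPM, below the cardiomyocyte markers. None of the 8 fibroblast markers was called. In bulk RNA, fewer cells of a type and less RNA per cell cannot be told apart.

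Of the 10 enzymes, Acod1, Nos2, Gch1 and Ass1 were called lower with β-SITO and Arg1, Nos3 and Ddah2 were called higher. Ddah1 was higher by less than 2-fold, Nos1 did not pass the test, and Arg2 had too few counts to be tested. The enzymes called lower include those that make nitric oxide in inflamed cells, make its cofactor, renew its substrate and make itaconate. The summed level of all 10 fell from 1179–1223 CPM to 227–230 CPM, and most of the vehicle sum was the 4 enzymes called lower. Of the 9 tested enzymes, 4 had a log2 fold change below 0 and 5 above, with a median of 0.46. Groups did not overlap for 9 of the 10 enzymes, all but Nos1, beside the 70.5% seen among tested genes. The median log2 fold change of all tested genes was -0.007284.

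Promoter sequences are shown for enzymes that moved most or in opposite directions and that are listed in the RefSeq promoter table of build GRCm38.p6, which held 6 of the 10. Each window spans 250 bases before to 50 bases after the annotated start and is printed 5′ to 3′ on the strand of the gene. Capitals mark matches, on either strand, to 5 searched motifs, which were the NF-κB consensus, the interferon-stimulated response element (ISRE) consensus, TTCNNNGAA (the site bound by STAT dimers), ACGTG (core of the hypoxia response element) and the TATA box, whose letters here were TATAAA. Nos2, Nos3, Arg1 and Arg2 are named only.
Acod1, chr14:103046762-103047061, plus strand: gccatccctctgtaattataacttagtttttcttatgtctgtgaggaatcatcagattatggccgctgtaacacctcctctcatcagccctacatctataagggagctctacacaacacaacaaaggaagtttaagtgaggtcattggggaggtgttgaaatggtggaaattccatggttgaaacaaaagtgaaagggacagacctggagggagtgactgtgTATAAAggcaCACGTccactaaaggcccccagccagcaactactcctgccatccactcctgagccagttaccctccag
Gch1, chr14:47189364-47189663, minus strand: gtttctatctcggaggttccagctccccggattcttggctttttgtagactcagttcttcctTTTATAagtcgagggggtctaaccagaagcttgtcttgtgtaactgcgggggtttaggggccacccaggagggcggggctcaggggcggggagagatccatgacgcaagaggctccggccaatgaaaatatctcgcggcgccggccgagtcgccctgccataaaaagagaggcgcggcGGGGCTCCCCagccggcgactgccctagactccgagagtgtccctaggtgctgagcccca
Ass1, chr2:31470020-31470319, plus strand: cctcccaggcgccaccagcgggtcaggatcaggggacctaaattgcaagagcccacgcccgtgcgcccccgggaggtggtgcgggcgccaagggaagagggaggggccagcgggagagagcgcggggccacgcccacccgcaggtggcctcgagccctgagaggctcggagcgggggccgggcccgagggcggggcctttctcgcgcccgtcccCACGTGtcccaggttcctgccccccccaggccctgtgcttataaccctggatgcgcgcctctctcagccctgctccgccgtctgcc
Ddah2, chr17:35058785-35059084, plus strand: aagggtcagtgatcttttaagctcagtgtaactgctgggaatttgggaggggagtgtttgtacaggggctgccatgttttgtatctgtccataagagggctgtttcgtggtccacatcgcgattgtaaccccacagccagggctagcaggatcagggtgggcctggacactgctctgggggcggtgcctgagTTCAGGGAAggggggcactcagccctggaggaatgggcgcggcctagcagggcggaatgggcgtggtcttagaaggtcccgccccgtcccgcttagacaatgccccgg

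In the Acod1 window a TATAAA began 28 bases before the start and a reverse match to ACGTG began 18 bases before it. The Gch1 window held a match to the NF-κB consensus 10 bases before the start and a reverse TATAAA 188 bases before it. In the Ass1 window, which is 74% G and C, the palindrome CACGTG 36 bases before the start matched ACGTG on both strands. In the Ddah2 window TTCNNNGAA matched 58 bases before the start. Of the 2 windows not printed, that of Nos1 matched the NF-κB consensus 90 bases before the start and that of Ddah1 held none of the motifs. Among 32851 promoters of the same length, 8.46% held the NF-κB consensus, 3.44% the ISRE consensus, 8.3% TTCNNNGAA, 19.6% ACGTG and 13.6% TATAAA. Such matches are descriptions of the letters in these windows and were not tested as sites.

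Nos2, the inducible synthase, lies on chromosome 11 at 78811613 to 78851080 (plus strand, coordinates of the deposited table, build GRCm39 per the submitters' processing notes). Its level was 422.4, 375.2 and 389.8 CPM in V1 to V3 and 3.75, 4.95 and 3.96 CPM in T4 to T6. The lowest vehicle library was thus far above the highest β-SITO library. The mean fell from 395.8 ± 24.2 CPM (SD, n = 3) to 4.22 ± 0.639 CPM (SD, n = 3), with a log2 change of -6.56 ± 0.097 (SE) or 94.0-fold (adjusted p = 6.667e-17). Among tested genes ordered from the lowest log2 fold change, Nos2 was number 105. It stood at rank 562 by level per kilobase with vehicle and at rank 11983 with β-SITO.

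Nos3, the endothelial synthase (chromosome 5, 24569808 to 24589472, plus strand), went the other way. It had 69, 48 and 54 counts in V1 to V3 and 489, 580 and 549 in T4 to T6, with no overlap between the groups. The mean was 3.57 ± 0.702 CPM (SD, n = 3) with vehicle and 28.8 ± 3.74 CPM (SD, n = 3) with β-SITO, a log2 fold change of 3.01 ± 0.139 (SE) or 8.04-fold (adjusted p = 3.083e-11). The antisense gene Atg9b, which overlaps Nos3, held at most 18 counts in any library. Endothelial markers moved with Nos3: 9 of 10 were called higher, Flt1 was called lower, none was at 0, and their summed level was 690 to 810 CPM with vehicle and 957 to 1007 CPM with β-SITO. Without Flt1, which held 477 to 566 CPM of the vehicle sum, the other 9 came to 212 to 244 CPM with vehicle and 860 to 893 CPM with β-SITO, with log2 fold changes of 1.43 to 4.09. Their part in the Nos3 change was not tested.

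Nos1, the neuronal synthase (chromosome 5, 117919097 to 118096905, plus strand), was close to the detection limit in every library, with 6, 3 and 11 counts with vehicle and 16, 10 and 9 with β-SITO. The groups overlapped, and the log2 fold change of 0.56 had a 95% interval of -0.41 to 1.54 (adjusted p = 0.2922). The counts are thus compatible with a change of either sign within that interval. Of 6 neuronal markers none had enough counts to be tested, Snap25 and Rbfox3 were at 0 in all libraries, and their sum was at most 0.442 CPM in any library.

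With the levels divided by exon length, to CPM per kilobase of exon (FPKM), the 3 synthases could be added. Their sum was 90.6 ± 5.65 FPKM (SD, n = 3) with vehicle and 7.97 ± 1.03 FPKM (SD, n = 3) with β-SITO, an 11.4-fold difference in the level of the family. Nos2 made up 98.9%, 99.1% and 99.0% of the sum in V1 to V3, and 12.1%, 12.4% and 11.4% in T4 to T6. Nos3 made up 0.949 ± 0.125% (SD, n = 3) of it with vehicle and 87.3 ± 0.653% (SD, n = 3) with β-SITO. The most abundant synthase transcript was therefore Nos2 in every vehicle library and Nos3 in every β-SITO library. An exact two-sided permutation test of the Nos2 share gave p = 0.1, the smallest that 3 libraries against 3 allow.

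**Figure D1:**
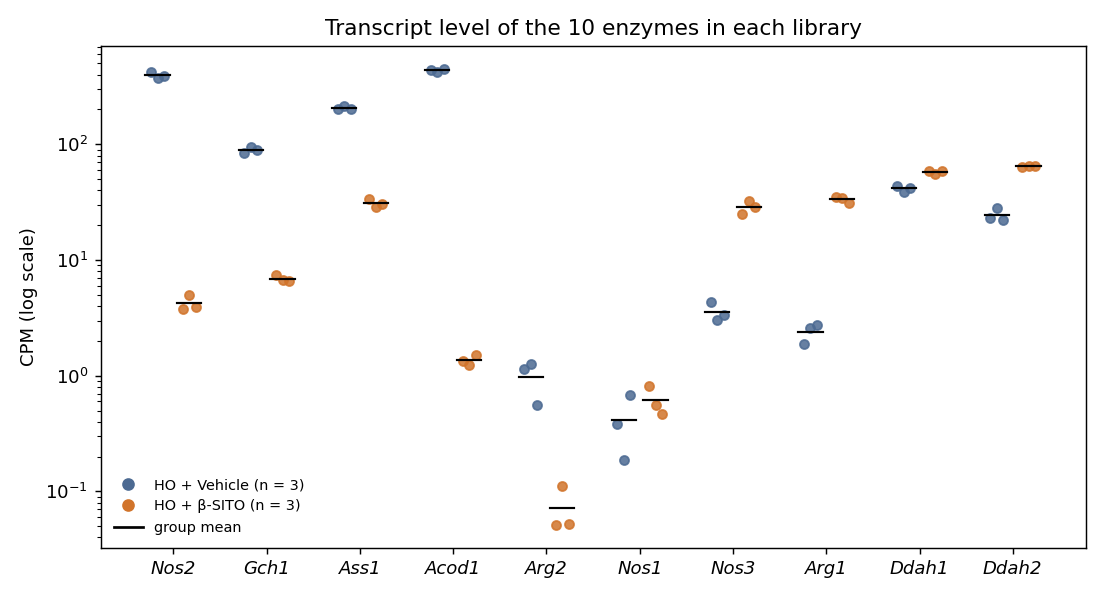
Level of each enzyme in CPM (log axis) in every library, HO + Vehicle in blue and HO + β-SITO in orange, with horizontal lines at the group means (n = 3 each). Nos2 sits between 375.2 and 422.4 CPM with vehicle and between 3.75 and 4.95 CPM with β-SITO, Nos3 and Arg1 show the opposite order, and the groups overlap for Nos1 alone.

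Gch1, which starts tetrahydrobiopterin synthesis (chromosome 14, 47391352 to 47426870, minus strand), was at 83.6, 94.0 and 89.4 CPM in V1 to V3 and at 7.40, 6.69 and 6.61 CPM in T4 to T6. All β-SITO libraries were below all vehicle libraries. The mean fell from 89.0 ± 5.18 CPM (SD, n = 3) to 6.90 ± 0.435 CPM (SD, n = 3), with a log2 change of -3.69 ± 0.083 (SE) or 12.9-fold (adjusted p = 4.89e-15). The other enzymes of tetrahydrobiopterin synthesis and recycling did not fall with it. Of 7 listed genes 6 were tested, none was called lower and 1 was called higher, and the median log2 fold change was 0.23 beside -0.007284 over all tested genes. The one called higher was Pcbd1, a dehydratase of the recycling arm, which stayed low at 0.690 ± 0.280 CPM (SD, n = 3) and 1.63 ± 0.261 CPM (SD, n = 3). Its relative Pcbd2 had a log2 fold change of 0.87, under the 2-fold limit (adjusted p = 8.133e-05). Gchfr, which codes for the feedback regulator of GTP cyclohydrolase, had too few counts to be tested.

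Ass1 (chromosome 2, 31360219 to 31410684, plus strand) had 3205, 3391 and 3257 counts in V1 to V3 and 652, 508 and 587 in T4 to T6. Levels were 205.6 ± 6.02 CPM (SD, n = 3) and 30.9 ± 2.49 CPM (SD, n = 3), and the log2 fold change was -2.73 ± 0.069 (SE) or 6.65-fold lower (adjusted p = 1.75e-14). The groups did not overlap. Among the enzymes called lower Ass1 kept the highest level with β-SITO, at 12.8 ± 1.03 FPKM (SD, n = 3) from 85.2 ± 2.49 FPKM (SD, n = 3). Its partner argininosuccinate lyase (Asl), which completes the synthesis of arginine and was picked here for that role after its value had been seen, had a log2 fold change of -0.13 (adjusted p = 0.1725). Per kilobase, the ratio of Ass1 to Asl was 13.3 to 15.1 with vehicle and 2.04 to 2.56 with β-SITO.

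Arg1, the cytosolic arginase (chromosome 10, 24791119 to 24803382, minus strand), had 30, 41 and 44 counts in V1 to V3 and 687, 614 and 600 in T4 to T6. Every β-SITO library was above every vehicle library. The mean rose from 2.40 ± 0.442 CPM (SD, n = 3) to 33.7 ± 2.16 CPM (SD, n = 3), with a log2 change of 3.81 ± 0.123 (SE) or 14.0-fold (adjusted p = 3.877e-13). In the order from the highest log2 fold change Arg1 was number 76 of all tested genes. Macrophages are a known source of Arg1, and of 10 macrophage markers 7 were called higher, none lower and none was at 0, with a summed level of 1185 to 1302 CPM with vehicle and 2814 to 3460 CPM with β-SITO. Lyz2 alone held 585 to 704 CPM of that sum with vehicle and 1296 to 1604 CPM with β-SITO. In that list Mrc1 had a log2 fold change of 4.79, whereas Adgre1 and Ptprc did not pass the test (log2 fold changes of -0.06 and -0.03). Of 8 neutrophil markers 1 was tested, Csf3r, which was called lower, and Ly6g and Retnlg were at 0. The neutrophil sum was 14.8 to 16.4 CPM with vehicle and 3.82 to 5.55 CPM with β-SITO, nearly all of it Csf3r, and the other 7 came to 0.744 to 1.25 and 0.781 to 1.49 CPM. The part of these cells in the changes of Arg1, Nos2 and Acod1 was not tested.

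Arg2, the mitochondrial arginase (chromosome 12, 79177551 to 79203075, plus strand), had 18, 20 and 9 counts in V1 to V3 and 1, 2 and 1 in T4 to T6. The groups did not overlap, but the counts were below the filter and no test was made in the main comparison. Summed over each group there were 47 and 4 counts, a depth-corrected ratio of 13.8 of vehicle over β-SITO with a 95% interval of 5.06 to 52.9 that covers counting error only. With no filter on low counts, edgeR gave a log2 fold change of -3.66 (adjusted p = 2.325e-08). Arg2 overlaps the antisense gene Vti1b, which had 918 to 1068 counts with vehicle and 677 to 825 with β-SITO. Since the strand setting of the counting is not stated, reads of Arg2 and Vti1b cannot be told apart where the genes overlap.

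The makeup of the arginase transcripts differed between the groups, as that of the synthases did. Arg2 made up 48.4%, 43.2% and 24.2% of the arginase transcripts per kilobase in V1 to V3 and 0.227%, 0.506% and 0.259% in T4 to T6. The groups did not overlap in this share (exact two-sided permutation p = 0.1, the smallest possible). The sum of both arginases was 1.76 ± 0.232 FPKM (SD, n = 3) with vehicle and 15.2 ± 0.977 FPKM (SD, n = 3) with β-SITO, 8.60-fold higher. Set against each other, Nos2 exceeded Arg1 by 72.2 to 112.6 times per kilobase in the vehicle libraries, while in the β-SITO libraries the ratio of Nos2 to Arg1 was 0.0537 to 0.0724.

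**Figure D2:**
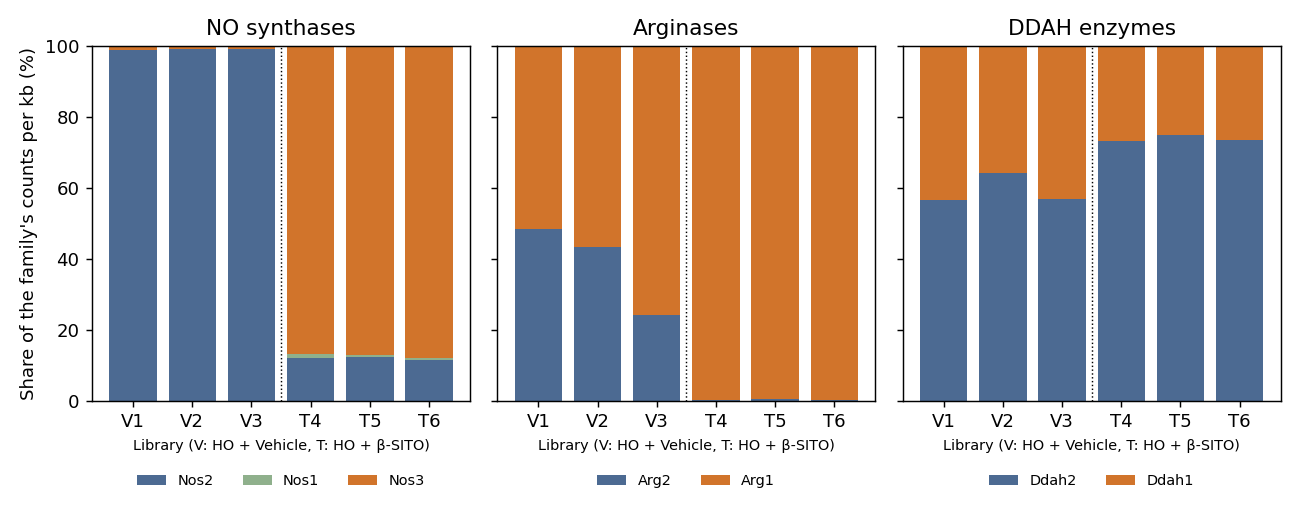
Share of each gene in the summed counts per kilobase of its family (vertical axis, %) in each library, V1 to V3 for HO + Vehicle and T4 to T6 for HO + β-SITO, one panel each for the nitric oxide synthases, the arginases and the DDAH enzymes. Nos2 makes up at least 98.9% of the synthases in the vehicle libraries and at most 12.4% in the β-SITO libraries, and Arg2 makes up at most 0.506% of the arginases with β-SITO.

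Both hydrolases of ADMA were higher with β-SITO, with 95% intervals of the log2 fold change of 1.24 to 1.59 for Ddah2 and 0.32 to 0.61 for Ddah1. Ddah2 (chromosome 17, 35278011 to 35281071, plus strand) was at 23.1, 28.0 and 22.1 CPM in V1 to V3 and at 64.0, 65.4 and 65.3 CPM in T4 to T6. Its log2 fold change was 1.41 ± 0.083 (SE), from 24.4 ± 3.19 CPM (SD, n = 3) to 64.9 ± 0.748 CPM (SD, n = 3) or 2.66-fold (adjusted p = 5.91e-10). Ddah1 (chromosome 3, 145464430 to 145600032, plus strand) had 44.0, 38.9 and 41.7 CPM in V1 to V3 and 58.2, 55.2 and 58.6 CPM in T4 to T6, so its groups did not overlap either. The log2 fold change of Ddah1 was 0.46 ± 0.068 (SE), from 41.6 ± 2.55 CPM (SD, n = 3) to 57.3 ± 1.85 CPM (SD, n = 3), which passed the adjusted p (2.034e-05) but stayed under 2-fold. The processed pseudogene Rpl36a-ps2 lies within Ddah1 on the same strand and had 304 to 642 counts of its own. Ddah2 made up 59.3 ± 4.31% (SD, n = 3) of DDAH transcripts per kilobase with vehicle and 73.9 ± 0.758% (SD, n = 3) with β-SITO (exact two-sided permutation p = 0.1, the smallest possible), and the sum of both was 2.14-fold higher with β-SITO. In plain counts the Ddah2 share was 36.9% with vehicle and 53.1% with β-SITO. Which gene led with vehicle thus depended on the division by exon length.

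Acod1 (chromosome 14, 103284413 to 103294009, plus strand) was the most abundant of the enzymes with vehicle and fell furthest. It had 6968, 6750 and 7260 counts in V1 to V3 and 26, 22 and 29 in T4 to T6. The mean fell from 437.8 ± 13.6 CPM (SD, n = 3) to 1.36 ± 0.138 CPM (SD, n = 3), with a log2 change of -8.32 ± 0.095 (SE) or 319.4-fold (adjusted p = 1.239e-17). In the order from the lowest log2 fold change Acod1 was number 45 of all tested genes. By level per kilobase it ranked 285 with vehicle and 12957 with β-SITO. Per kilobase Acod1 was above Nos2 in the vehicle libraries, with a ratio of 1.75 to 1.94, and below it in the β-SITO libraries, with a ratio of 0.421 to 0.642. None of the 10 macrophage markers was at 0 in these libraries, and their summed level was higher with β-SITO, as given beside Arg1.

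**Figure D3:**
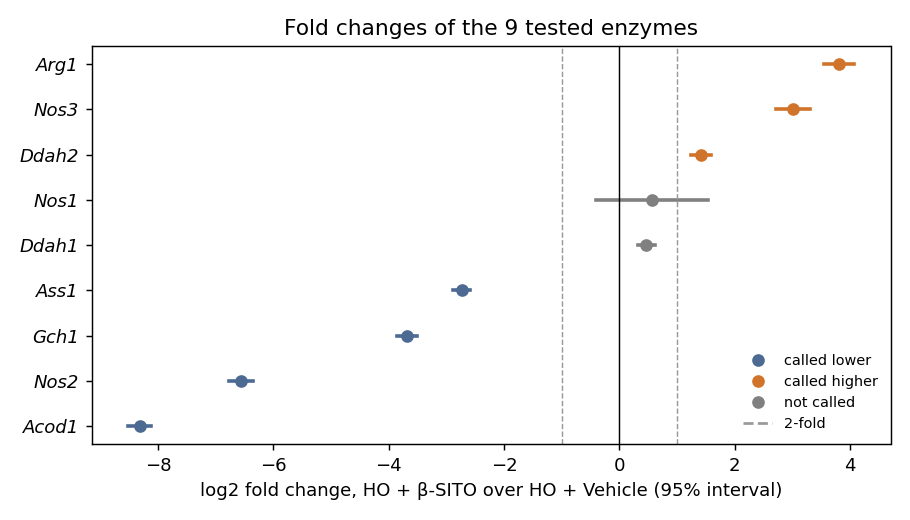
Log2 fold change of HO + β-SITO over HO + Vehicle for the 9 tested enzymes (horizontal axis, points) with 95% intervals (bars), in blue where called lower, orange where called higher and grey where not called, and dashed lines at 2-fold. Acod1 (-8.32) and Nos2 (-6.56) lie far to the left, Arg1 (3.81) and Nos3 (3.01) to the right, and the interval of Nos1 crosses 0.

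Order by level per kilobase differed between the groups. With vehicle, Acod1 stood first at 166.9 ± 5.18 FPKM (SD, n = 3), followed by Nos2 at 89.7 ± 5.48 and Ass1 at 85.2 ± 2.49 FPKM, whose libraries overlapped. Ddah2 at 15.3 ± 2.0 and Gch1 at 14.2 ± 0.829 FPKM overlapped as well, and Ddah1 at 10.4 ± 0.641 FPKM was below both. Arg1, Nos3 and Arg2 followed at 1.08 ± 0.198, 0.864 ± 0.170 and 0.688 ± 0.261 FPKM, each overlapping its neighbour, and Nos1 was last at 0.0373 ± 0.0223 FPKM. With β-SITO, Ddah2 came first at 40.7 ± 0.469 FPKM. Arg1 at 15.1 ± 0.969, Ddah1 at 14.4 ± 0.465 and Ass1 at 12.8 ± 1.03 FPKM followed, each overlapping its neighbour. Nos3 stood at 6.96 ± 0.905 FPKM, above Gch1 at 1.10 ± 0.0696 and Nos2 at 0.956 ± 0.145 FPKM, whose libraries overlapped. Acod1 was at 0.519 ± 0.0527 FPKM, and Nos1 and Arg2 were last at 0.0554 ± 0.0164 and 0.0504 ± 0.0245 FPKM and overlapped.

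The genes most like Nos2 were sought by the root mean square difference of mean-centred log2 CPM over the 6 libraries. The nearest were Slc2a6, which codes for a sugar transporter of the GLUT family (difference 0.0936), the processed pseudogene Gm13394 (0.115) and Cxcl5, a chemokine that attracts neutrophils (0.115). Slc2a6 had means of 142.7 CPM with vehicle and 1.42 CPM with β-SITO, Gm13394 560.1 and 6.16 CPM, and Cxcl5 1357 and 14.3 CPM. Since the pattern over 6 libraries is mostly the difference between the groups, likeness here mostly means a like fold change. The log2 CPM for this search used a prior count of 2, which shrinks the fold changes of faint genes.

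The genes around these enzymes were described in 9 lists of 113 genes in all, of which 105 were tested. Of these, 11 were called lower and 14 higher, another 46 passed the adjusted p at less than 2-fold, and the median log2 fold change was -0.01, beside -0.007284 for all tested genes. With upper quartile normalization or library size alone, which moved the median of all tested genes to 0.14 in both, the split was 7 lower and 16 higher. Shares near the 10.1% called lower and 12.8% called higher among all tested genes are no result about these pathways.

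In arginine transport, 9 genes were tested, 2 were called lower, none higher, and the median log2 fold change was -0.50. Slc7a2, which codes for the cationic amino acid transporter that is induced together with Nos2 in macrophages, was at 867.3, 736.8 and 886.6 CPM in V1 to V3 and at 64.4, 70.4 and 63.1 CPM in T4 to T6. It fell by 3.65 on the log2 scale, or 12.6-fold (adjusted p = 4.682e-15), a fall close in size to that of Gch1. Slc7a7, the light chain of an arginine exchanger, fell by 1.26 on the log2 scale (adjusted p = 8.906e-10).

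In the urea cycle and arginine supply, 6 of 10 genes were tested and 1 was called higher, with a median of 0.33. That gene was Gamt, which makes creatine from a product of arginine and rose from 1.42 ± 0.313 CPM (SD, n = 3) to 9.74 ± 0.316 CPM (SD, n = 3), with a log2 change of 2.77 (adjusted p = 1.039e-09). Cps1, Otc, Nags and Agmat had too few counts to be tested. Downstream of arginase, all 15 genes of ornithine, polyamine and proline metabolism were tested, and 1 was called higher, Paox (log2 fold change 1.22, adjusted p = 1.454e-08), a polyamine oxidase. The related oxidase Smox had 0.86, under 2-fold, and the median was 0.21. None of the 8 tested genes of arginine methylation and other ADMA clearance was called, with a median of -0.24. The enzymes Prmt1, the main source of dimethylated arginine in proteins, and Prmt2 had log2 fold changes of -0.83 and -0.67, which passed the adjusted p at less than 2-fold (4.834e-08 and 5.626e-07).

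Among 12 genes listed for partner proteins of the synthases, 1 was called lower and 2 higher, with a median of -0.00016. Cav1, which codes for the membrane protein caveolin that holds the endothelial synthase inactive, was at 19.1, 17.9 and 17.8 CPM in V1 to V3 and at 86.4, 92.1 and 91.0 CPM in T4 to T6. The log2 fold change of Cav1 was 2.30 ± 0.068 (SE; adjusted p = 1.392e-13). Nostrin, which takes part in the traffic of the endothelial synthase, rose from 2.38 ± 0.367 CPM (SD, n = 3) to 5.81 ± 0.497 CPM (SD, n = 3). Both transcripts are also found in endothelial cells, whose markers moved as given beside Nos3. The one called lower was Hsp90aa1, a chaperone of the synthases (log2 fold change -1.13), named after its value had been seen. With library size only, with upper quartile normalization and with glmTreat, 0 genes of this list were called lower.

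The list of nitric oxide sensing and cGMP signaling held 7 of the 14 pathway genes called higher. Of its 16 genes 15 were tested and 1 was called lower, with a median of 0.70. Among all tested genes 12.8% were called higher and 10.1% lower. Soluble guanylate cyclase, the enzyme that binds nitric oxide and makes cGMP, has an alpha and a beta subunit. Its alpha subunit gene Gucy1a1 was at 57.9, 57.5 and 58.2 CPM in V1 to V3 and at 647.7, 603.0 and 596.5 CPM in T4 to T6, a log2 fold change of 3.41 ± 0.064 (SE; adjusted p = 6.42e-16). The beta subunit gene Gucy1b1 rose from 46.7 ± 2.98 CPM (SD, n = 3) to 189.1 ± 8.97 CPM (SD, n = 3), with a log2 change of 2.02 (adjusted p = 4.651e-13). Gucy1a2, another alpha subunit gene, was called higher at a low level, from 1, 5 and 2 counts to 34, 23 and 30. The cGMP phosphodiesterase gene Pde9a rose by 2.45 on the log2 scale from 0.647 ± 0.235 CPM (SD, n = 3). The phosphodiesterase genes Pde3a and Pde5a were called higher too. Pde3a had means of 68.5 CPM with vehicle and 178.0 CPM with β-SITO, and Pde5a 11.4 and 27.3 CPM. Pde1a, Pde1b and Pde1c were not called, with log2 fold changes of -0.28, -0.34 and -0.32. Besides Pde9a, these phosphodiesterase genes were named after their values had been seen. The kinase gene Prkg2 fell by 2.16 from 0.898 ± 0.257 CPM (SD, n = 3), from 18, 10 and 15 counts to 4, 4 and 3. The other kinase gene of the list, Prkg1, was more abundant and was called higher (log2 fold change 1.97, adjusted p = 1.806e-11). Prkg1, named after its value had been seen, had means of 13.9 CPM with vehicle and 54.7 CPM with β-SITO. Smooth muscle cells also carry transcripts of soluble guanylate cyclase. Of 6 smooth muscle markers 3 were called higher, none lower and none was at 0, with a sum of 599 to 649 CPM with vehicle and 1170 to 1369 CPM with β-SITO. Most of that sum was Acta2, at 536 to 575 CPM with vehicle and 1038 to 1197 CPM with β-SITO. Acta2 was under 2-fold (log2 fold change 0.99), and the 6 markers had log2 fold changes of 0.36 to 2.77. The part of smooth muscle cells in the cyclase change was not tested.

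Around itaconate, all 19 genes of its precursors, targets and breakdown were tested and 1 was called, Idh2, a mitochondrial isocitrate dehydrogenase (log2 fold change 1.10, adjusted p = 2.473e-09). The median was 0.04, and 12 of the 19 did not pass the adjusted p. The citrate carrier gene Slc25a1 had the lowest value at -0.73, under 2-fold.

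Of 15 listed regulators of transcription for these enzymes, 7 were called lower and 1 higher, beside 10.1% and 12.8% of all tested genes. The median of the 15 was -0.96. With library size only, with upper quartile normalization and with glmTreat, 4 were called lower. Irf1, an interferon regulatory factor, was at 301.5, 312.2 and 294.8 CPM in V1 to V3 and at 28.0, 26.0 and 25.7 CPM in T4 to T6. It fell from 302.8 ± 8.78 CPM (SD, n = 3) to 26.6 ± 1.26 CPM (SD, n = 3), with a log2 change of -3.51 ± 0.065 (SE; adjusted p = 6.048e-16). All 15 regulators passed the adjusted p, as did 66.8% of all tested genes. Of the 15, 14 had a log2 fold change below 0. The exception was Klf2, a factor of endothelial cells under flow that is known to raise Nos3 (log2 fold change 1.68), named after its value had been seen. Keap1, 1 of the 7 called lower (log2 fold change -1.04), is not itself a transcription factor and was also named after its value had been seen. These are levels of the regulators' transcripts, and the activity of the regulators was not measured.

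**Figure D4:**
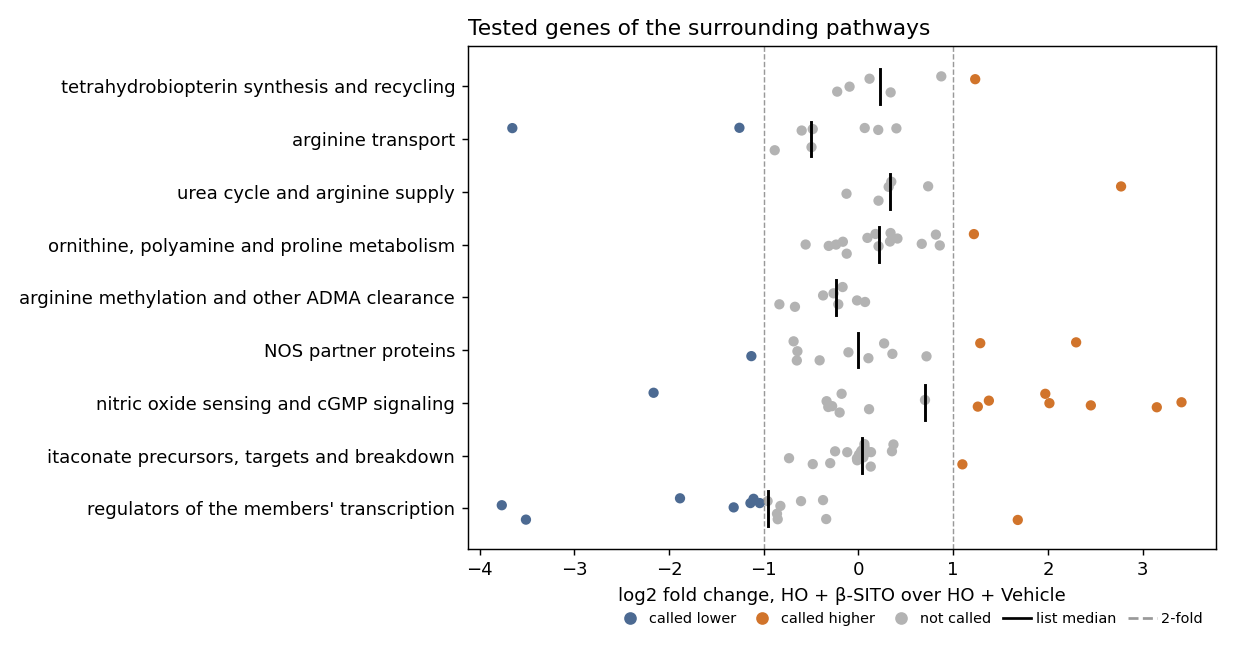
Log2 fold change of HO + β-SITO over HO + Vehicle (horizontal axis) for each tested gene of the 9 surrounding lists (one row each), in blue where called lower, orange where called higher and grey where not called, with a black line at each list's median and dashed lines at 2-fold. The regulators lie left of 0 except 1 gene, and the itaconate list has its median at 0.04. The list of nitric oxide sensing and cGMP signaling holds 7 of the 14 genes called higher.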

How the data were processed

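Total RNA of 6 samples labelled NMCMs was sequenced in pairs of reads (the labels name an Illumina TruSeq kit, the study's methods an ABclonal kit). The submitters' processing notes name FastQC, HISAT2, featureCounts and build GRCm39, with no versions. The authors deposited 1 table of raw counts per gene, with no normalization. Strand and multimapping options are not given in the sources used here, and column names of the β-SITO libraries carry an added letter, so any separate preparation of that group and its treatment cannot be told apart.

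From the counts, R 4.3.3 and edgeR 4.0.16 were used for filterByExpr, TMM scaling and the quasi-likelihood test with Benjamini-Hochberg adjustment over 14799 genes, tested on simulated data. TMM factors were 0.9455 to 0.9565 with vehicle and 1.05 to 1.055 with β-SITO, and the biological coefficient of variation was 6.519%. FPKM is TMM-scaled CPM divided by exon kilobases from GENCODE vM21, matched by gene identifier (98.9% of tested genes), and no coordinates were taken from it. SE is the log2 fold change divided by the root of F. Shares within families were compared by exact permutation tests. The interval of the Arg2 ratio is exact binomial at 95%. Promoter windows came from RefSeq GRCm38.p6 and were not mixed with the table's coordinates.

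The members and lists were chosen with earlier results of these data known. Besides all members, the text names from each pathway list the 2 tested genes with the largest absolute log2 fold change and any called gene past 4-fold, and the 3 genes nearest to Nos2; others are said to be named after their values were seen. Of the genes this rule picks, 2 are not reported here. Alternatives were DESeq2 1.42.0 (the tool of the study), limma-voom 3.58.1, glmTreat, other scalings and filters, and leaving out each library.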

Additional observations from a re-analysis of the deposited data

How the results depend on the processing

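The number of enzymes called lower was 4 to 5 and the number called higher 3 to 4 over 16 alternatives. No enzyme changed sign in any alternative that tested it, nor did any pathway gene picked by the rule above. The signs of pathway genes named after their values were seen were not followed. The fifth enzyme called lower was Arg2, which was tested with no filter and in 4 of the fits that left out a library, with log2 fold changes of -4.04 to -3.48. The 11 pathway genes called lower became 7 with glmTreat against 2-fold, 7 with upper quartile normalization, 7 with library size only and 40 with the adjusted p only, and the 14 called higher became 31 with the adjusted p only. Without any 1 library, 11 pathway genes were called lower each time and 14 to 15 higher. The calls of Pcbd1, Nostrin and Idh2 were lost with glmTreat (adjusted p = 0.4516, 0.09978 and 0.1686). With library size only, with upper quartile normalization and with glmTreat, the regulators called lower went from 7 to 4 and the synthase partners called lower, Hsp90aa1, from 1 to 0. Ddah1 was called with the adjusted p only. The β-SITO minus vehicle difference ranged from -87.2 to -86.5 percentage points for the Nos2 share, from -45.5 to -28.9 for Arg2 and from 13.3 to 17.1 for Ddah2, over leaving out each library and over shares of plain counts. T4 stood apart in cardiomyocyte markers (5206 CPM against 8788 and 8869 in T5 and T6), and without it the enzymes called higher were 3 and those called lower 5. No paired analysis was possible because the groups share no replicate numbers. Depth limits Nos1 and Arg2, which had at most 20 counts in any library.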
